A study of Mus musculus with 6 samples.

Results

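The genes described here are 39 mouse genes of the interferon response and of antigen presentation, taken by their symbols and grouped by role. There were 18 type I interferon targets with their regulators, 6 factors and GTPases of the interferon gamma response, 8 genes of the class I machinery and 7 genes of the class II machinery. Of the 39, 34 had a probe set that carries their symbol alone, out of 19938 genes measured that way, and a gene with several such probe sets was read from the one with the highest 6-array mean. Isg15, Gbp2, Igtp and H2-DMb1 lay on probe sets that carry several symbols, and Ifi44 was not listed in the annotation used here. These 5 genes are therefore not counted among the measured members.

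RNA came from intestinal crypts, the glands at the base of the gut epithelium where stem cells divide, of YAP transgenic (YAP Tg) and control mice. There were 3 samples per group, with 1 array per sample. By the series title, the YAP Tg mice carry YAP-S127A, in which the coactivator YAP escapes inhibition by the Hippo kinases at the replaced serine, together with Villin-rtTA, a doxycycline-dependent activator driven by a promoter of the intestinal epithelium. Mice received doxycycline for 2 days before the crypts were taken. The labels do not say whether the control mice received it, which transgenes they carried, or the age, sex and strain of either group. Crypts were released from the washed intestine with EDTA and were not cultured. Samples are named YAP Tg 1, 2 and 3 and control 1, 2 and 3, and values are always given in that order. All samples were treated as separate mice, which the labels state for the controls only.

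Signals are log2 values, so a difference of 1 is a doubling, and every log2 change is YAP Tg minus control. Gene medians were 6.74 to 6.79 on all arrays. The YAP Tg arrays varied more among themselves than the control arrays, with a median SD over all genes of 0.159 in YAP Tg and 0.0823 in control. The endogenous gene of the transgene's product, Yap1, read 8.98, 9.27 and 9.25 in YAP Tg against 9.43, 9.48 and 9.30 in control (log2 change -0.24, adjusted p = 0.184 by limma), and the labels do not say whether its probes read the transgene's RNA. Epithelial genes gave strong signals in both groups. Epcam read 11.96, 11.68 and 11.89 in YAP Tg against 11.64, 11.73 and 11.63 in control, and Krt8 was 13.66 to 13.69 in YAP Tg against 13.37 to 13.45 in control.

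Type I interferons act through their receptor on the kinases Jak1 and Tyk2, which activate a complex that includes Stat2 and Irf9 and binds interferon-stimulated response elements in antiviral genes. Interferon gamma uses a separate receptor, acts through gamma-activated sites, and induces Irf1, the guanylate-binding and immunity-related GTPases, and genes of antigen presentation. Class I molecules display peptides cut by the proteasome and carried by the Tap transporter on nearly all cells, with Nlrc5 as their transactivator. Class II molecules display peptides to CD4+ T cells, depend on Ciita, and are found on B cells, dendritic cells and macrophages as well as on intestinal epithelium exposed to interferon gamma.

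Irf1 and Nlrc5, the factors that stand upstream of much of class I expression, were higher in YAP Tg crypts, and no measured member passed as lower. These 2 were the members past the test (limma, adjusted p under 0.05 over all genes), 5.88% of the 34, whereas 14.2% of all genes passed in either direction, 7.5% higher and 6.7% lower. At an unadjusted p under 0.05 there were 8 of the 34 members, against 29.9% of all genes. All 3 YAP Tg values lay above all 3 control values for 5 members, and below them for 0, against 16.5% and 17% of all genes. The groups overlapped for the other 29. The log2 change was above 0 for 23 of the 34 members, against 56.4% of all genes, with a median of 0.19 against 0.03 over all genes.

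The YAP Tg samples differed from each other, in an order that varied by role. YAP Tg 1 was the highest YAP Tg array for 16 of 16 measured type I targets, against 32.0% of all genes. YAP Tg 2 was the highest for 6 of 6 class II genes, 6 of 8 class I genes and 3 of 4 interferon gamma genes, against 31.1% of all genes. Outside the members it was also the highest for 8 of 8 other class I genes and 3 of 3 constitutive proteasome subunits. YAP Tg 3 was the highest for 0 of 34 members, against 36.8% of all genes, and lay below YAP Tg 1 in 34 of 34, against 39.4%. These counts are descriptions of 3 arrays, with genes that move together, and carry no test. Which difference between the samples goes with this order is not given in the labels.

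**Figure D1:**
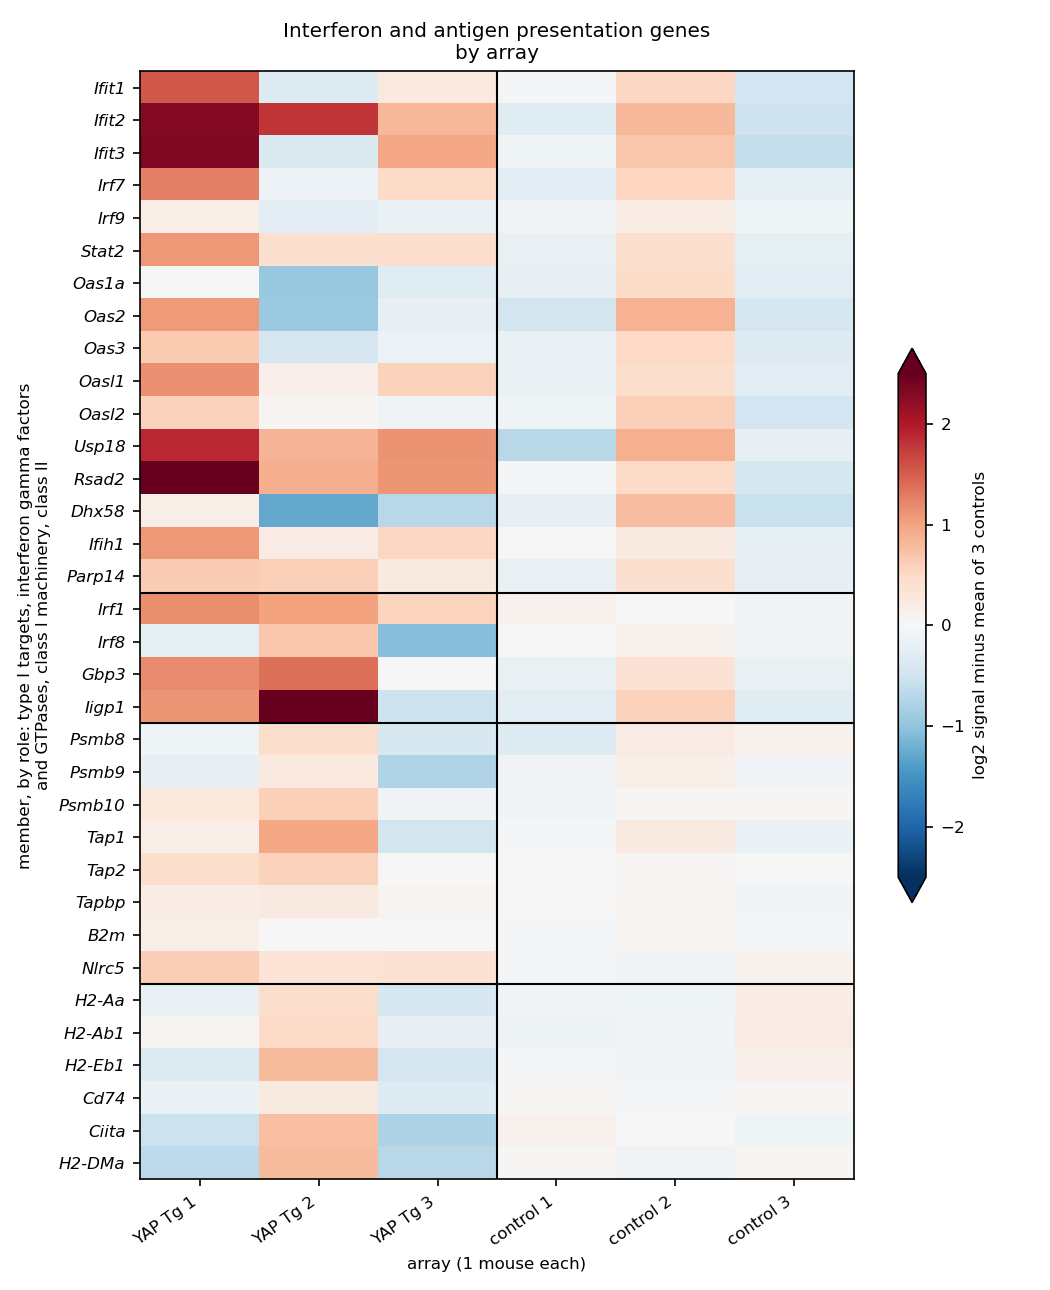
Heat map of the 34 measured members (rows, by role) on the 6 arrays (columns, YAP Tg left of control), coloured by the log2 signal minus the mean of the 3 control arrays. YAP Tg 1 is the highest YAP Tg array throughout the type I targets, and YAP Tg 2 throughout the class II genes.

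Among the type I targets, 0 of 16 measured genes passed the test in either direction, against 14.2% of all genes. An unadjusted p under 0.05 was seen in 6, against 29.9% of all genes. The largest changes were those of Ifit2 and Rsad2, in which all 3 YAP Tg values were above all 3 control values. The promoters of 4 members with interferon-stimulated response elements follow, including Gbp3 of the interferon gamma genes. They are given as 160 bases before the annotated start from RefSeq (GRCm38.p6), because they carry the sequence through which this response is read. Capitals mark matches to the core of this element, GAAA and GAAA separated by any 2 bases, on either strand. Rsad2 lies at chr12:26456453-26456612 (minus strand), Ifit1 at chr19:34640729-34640888 (plus), Ifit3 at chr19:34583369-34583528 (plus) and Gbp3 at chr3:142559884-142560043 (plus). In Gbp3 the 2 matches overlap.
Rsad2: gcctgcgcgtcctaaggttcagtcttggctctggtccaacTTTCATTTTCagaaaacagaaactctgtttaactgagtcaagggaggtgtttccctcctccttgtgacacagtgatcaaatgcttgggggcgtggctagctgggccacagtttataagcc
Ifit1: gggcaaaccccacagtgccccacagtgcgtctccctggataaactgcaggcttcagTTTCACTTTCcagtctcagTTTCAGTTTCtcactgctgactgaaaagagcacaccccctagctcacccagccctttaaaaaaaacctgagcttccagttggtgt
Ifit3: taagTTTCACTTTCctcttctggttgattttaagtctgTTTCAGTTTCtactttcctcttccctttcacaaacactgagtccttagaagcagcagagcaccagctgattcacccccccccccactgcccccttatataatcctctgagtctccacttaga
Gbp3: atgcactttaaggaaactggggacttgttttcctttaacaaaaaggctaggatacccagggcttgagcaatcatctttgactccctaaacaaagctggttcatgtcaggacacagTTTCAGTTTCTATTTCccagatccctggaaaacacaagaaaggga

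A promoter entry was matched for 24 of the 34 measured members, and 250 bases before to 50 after the start were searched on both strands. Oas2, Usp18, Dhx58, Parp14, Iigp1, Tap2, Nlrc5, H2-Ab1, Cd74 and Ciita had no entry. The core occurred in 9 of the 24 (37.5%), against 3.99% of 27025 genes in the table. By role it occurred in 7 of 12 type I targets, 1 of 3 interferon gamma genes, 1 of 6 class I genes and 0 of 3 class II genes. Ifit2, the type I target with the largest change, had a promoter entry but no match to the core. The longer form, in which CT follows the core, contains the core and occurred in 4 of the 24 (16.7%), against 0.303% of genes. These matches describe letters in a window, not binding.

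The Ifit proteins bind viral RNA and block its translation. Ifit1 read 11.10, 9.22 and 9.77 in YAP Tg against 9.49, 10.06 and 9.05 in control, a log2 change of 0.50 (SE 0.50, adjusted p = 0.552, limma). Ifit2 read 8.80, 8.30 and 7.34 in YAP Tg against 6.22, 7.33 and 6.0 in control, a log2 change of 1.63 (SE 0.48, adjusted p = 0.0757). Rsad2, which encodes the antiviral enzyme viperin, read 10.78, 8.86 and 9.06 in YAP Tg against 7.91, 8.44 and 7.51 in control, a log2 change of 1.61 (SE 0.54, adjusted p = 0.106). YAP Tg 1 was far above the other YAP Tg samples in Ifit1 and Rsad2, and control 2 was the highest control in all 3 genes. In Ifit1, YAP Tg 2 lay below control 1 and control 2. Ifit3 had the same order of YAP Tg samples as Ifit1, at 10.60, 7.91 and 9.25 in YAP Tg against 8.18, 8.98 and 7.68 in control (0.98, adjusted p = 0.391).

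Usp18, which removes Isg15 from proteins and dampens receptor signalling, had 12.53, 11.50 and 11.76 in YAP Tg against 9.96, 11.54 and 10.45 in control (log2 change 1.28, SE 0.45, adjusted p = 0.121, limma). Control 2 exceeded YAP Tg 2, so the groups overlapped. Irf7, the factor that amplifies the type I response, had 11.44, 10.04 and 10.67 in YAP Tg against 9.91, 10.71 and 9.93 in control (0.53, SE 0.39, adjusted p = 0.408). Stat2 had 9.82, 9.14 and 9.18 in YAP Tg against 8.56, 9.15 and 8.52 in control (0.64, SE 0.25, adjusted p = 0.149). Irf9, its partner in the complex, had 9.07, 8.63 and 8.75 in YAP Tg against 8.84, 9.09 and 8.80 in control (-0.09, SE 0.14, adjusted p = 0.689). Control 2 again stood at the level of, or above, YAP Tg 2 in Irf7, Stat2 and Irf9.

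The remaining type I members overlapped too. Over the role, 12 of 16 changes were above 0, the median was 0.51 on the log2 scale, and the range ran from -0.60 for Dhx58, a regulator of cytosolic RNA sensing, to 1.63 for Ifit2. Relative to the control mean, the median over the role was 1.08 in YAP Tg 1, -0.06 in YAP Tg 2 and 0.34 in YAP Tg 3. The median change was 0.24 without YAP Tg 1 and 0.78 without YAP Tg 2. Control 2 was the highest control for 16 of 16, against 32.4% of all genes, and exceeded the mean of the other controls by a median of 0.77, between 0.27 and 1.34. The oligoadenylate synthetases make the activator of RNase L, and none of those measured passed. Oas1a had a log2 change of -0.41, Oas2 of -0.03 and Oas3 of 0.03 (adjusted p 0.399, 0.982 and 0.957, limma). The related Oasl1 and Oasl2 had 0.61 and 0.17, with adjusted p of 0.230 and 0.748. Ifih1, a sensor of viral RNA, and Parp14, an ADP-ribosyltransferase, had log2 changes of 0.60 and 0.49 (adjusted p 0.153 and 0.163).

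**Figure D2:**
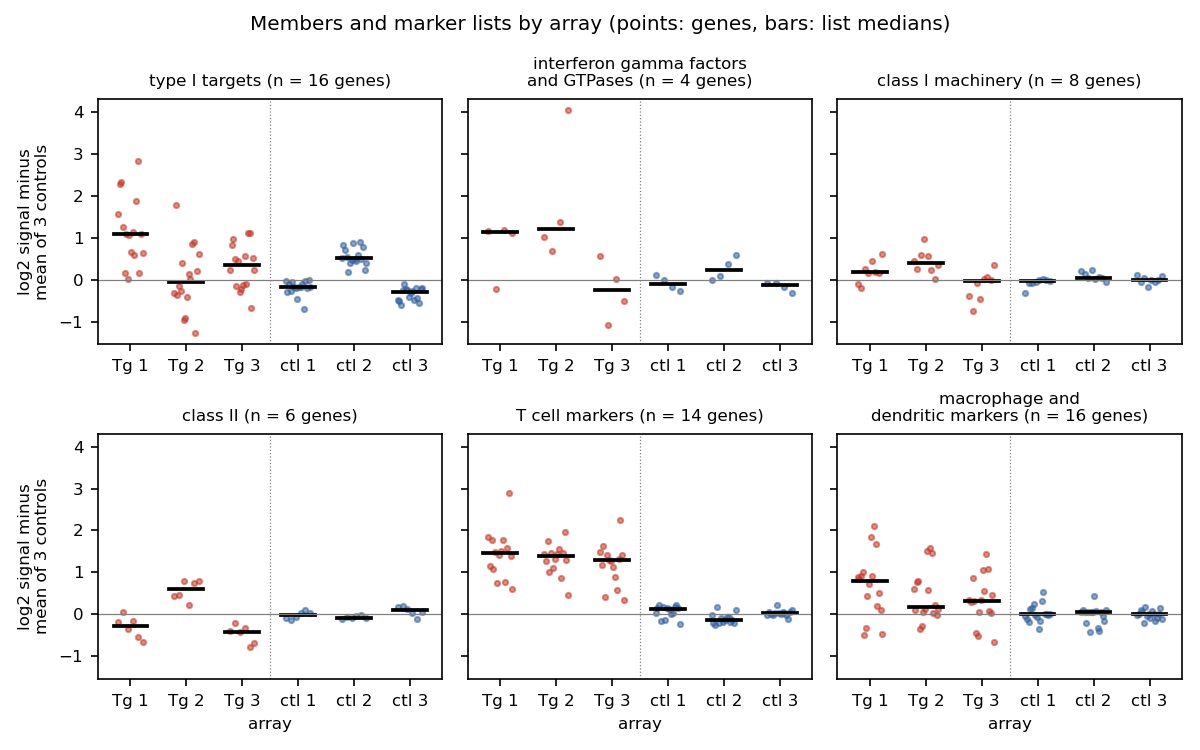
Log2 signal minus the mean of the 3 controls on each array, with YAP Tg (red) left of control (blue), in 1 panel per role and for T cell and macrophage markers. Points are genes and bars are medians. Type I targets are highest in YAP Tg 1, with a median of 1.08, and control 2 is the highest control, while class II genes are highest in YAP Tg 2.

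Irf1 rose and was the 1 of 4 measured interferon gamma genes past the test, where 14.2% of all genes passed. Irf1, a factor that activates class I and GTPase genes, read 11.65, 11.49 and 11.05 in YAP Tg against 10.59, 10.47 and 10.39 in control, so that every YAP Tg value was above every control value. The log2 change was 0.91 (SE 0.16, adjusted p = 0.0163, limma), a 1.88-fold higher mean. A second probe set of Irf1 read 7.55, 7.30 and 7.41 in YAP Tg against 6.79, 6.73 and 6.81 in control. Leaving out control 1, 2 or 3 gave adjusted p values of 0.0642, 0.0769 and 0.0822, with fewer arrays in the fit. The promoter of Irf1 at chr11:53769854-53770013 (plus strand, GRCm38.p6, RefSeq) is shown because it holds a gamma-activated site, TTCNNNGAA in capitals.
Irf1: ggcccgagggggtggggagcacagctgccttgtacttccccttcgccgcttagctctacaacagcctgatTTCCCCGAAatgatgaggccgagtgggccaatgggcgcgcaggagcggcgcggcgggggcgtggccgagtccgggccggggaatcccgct

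TTCNNNGAA occurred in 5 of the 24 members with a promoter entry (20.8%), against 9.55% of genes. The other 3 measured interferon gamma genes differed widely between YAP Tg samples. Iigp1, an immunity-related GTPase that acts on vacuoles of intracellular pathogens, read 6.99, 9.93 and 5.37 in YAP Tg against 5.62, 6.46 and 5.58 in control (log2 change 1.54, SE 1.09, adjusted p = 0.390, limma). Its YAP Tg values spanned 4.56 log2 units, with YAP Tg 3 below every control, and the unnamed low-numbered probe sets had medians of 5.17 in YAP Tg and 4.97 in control, close to its lowest signals. Gbp3, a guanylate-binding protein, read 7.99, 8.19 and 6.82 in YAP Tg against 6.62, 7.18 and 6.63 in control (0.86, adjusted p = 0.186). Irf8, a factor of myeloid and B cells, read 10.04, 10.95 and 9.20 in YAP Tg against 10.27, 10.36 and 10.18 in control (-0.21, adjusted p = 0.767).

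**Figure D3:**
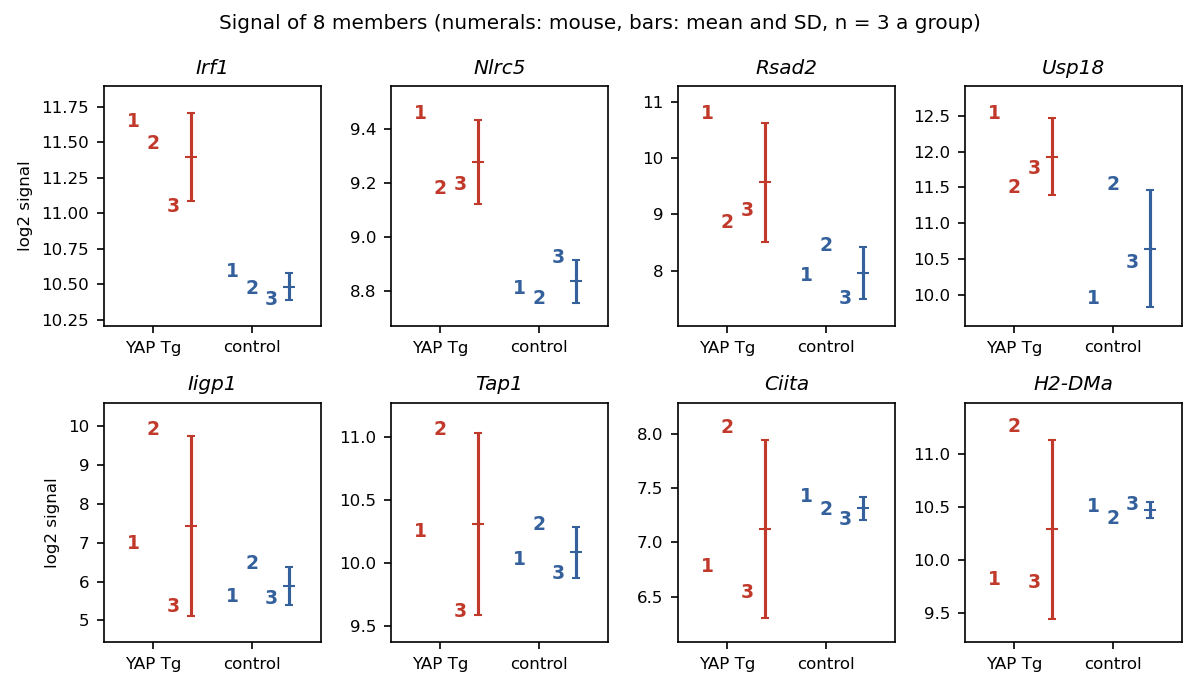
Log2 signal of 8 members, each with its own axis, with YAP Tg (red) left of control (blue). Numerals are the samples and bars the mean and SD (n = 3 a group). The groups are apart in Irf1, Nlrc5 and Rsad2 and overlap in the other 5, where YAP Tg 2 is highest in Iigp1, Tap1, Ciita and H2-DMa.

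In the class I machinery, Nlrc5 rose and 7 of 8 genes did not pass, where 14.2% of all genes passed. Nlrc5, the transactivator of class I genes, read 9.46, 9.18 and 9.19 in YAP Tg against 8.81, 8.77 and 8.92 in control, with every YAP Tg value above every control value. The log2 change was 0.44 (SE 0.10, adjusted p = 0.0357, limma), and it no longer passed in 8 of 14 other settings, with adjusted p up to 0.140. Leaving out YAP Tg 1 gave 0.0553, YAP Tg 3 gave 0.0688, and control 1, 2 or 3 gave 0.139, 0.140 and 0.0899. Nlrc5 is covered by 19 probe sets, and 19 of 19 changes were above 0, between 0.23 and 1.15 with a median of 0.63. Fitted singly, 2 of the 19 passed, against 9.91% of 28939 probe sets, and YAP Tg 3 was above all controls in 10 of 19 whereas YAP Tg 1 and YAP Tg 2 were in 19 of 19.

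**Figure D4:**
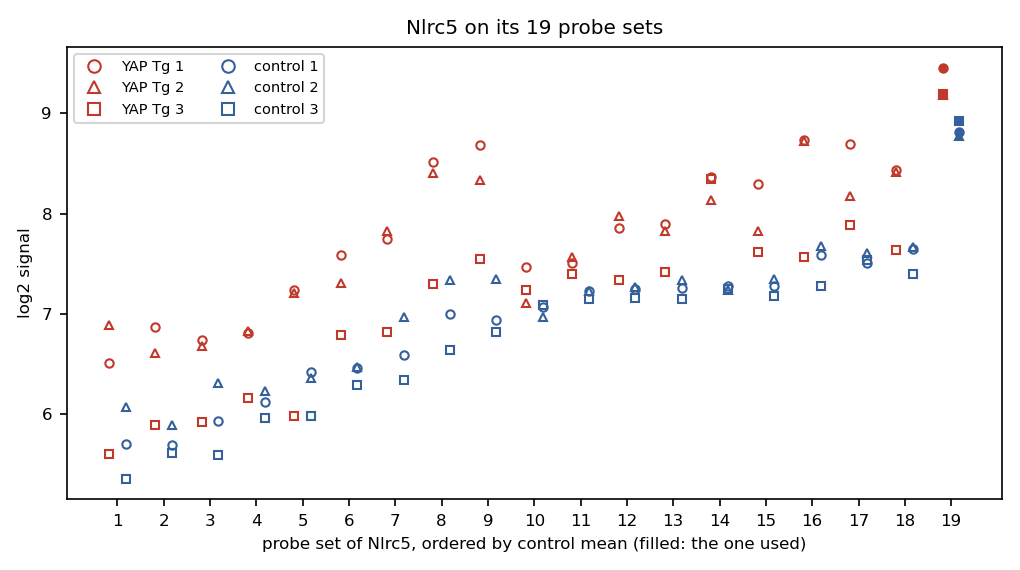
Log2 signal of Nlrc5 on each array for its 19 probe sets, ordered by control mean, with YAP Tg (red) left of control (blue). Filled symbols mark the probe set used for the gene. YAP Tg 1 and YAP Tg 2 lie above the controls in 19 of 19 probe sets, and YAP Tg 3 in 10.

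Tap1, a subunit of the peptide transporter, read 10.25, 11.06 and 9.62 in YAP Tg against 10.03, 10.31 and 9.92 in control (log2 change 0.22, SE 0.35, adjusted p = 0.706, limma). B2m, the light chain of class I molecules, was among the strongest signals, at 13.18, 13.05 and 13.02 in YAP Tg against 13.01, 13.07 and 13.01 in control (0.05, SE 0.07, adjusted p = 0.679). Its 95% interval was -0.13 to 0.23. Tapbp, the chaperone that loads peptide, had a log2 change of 0.16 with non-overlapping groups (adjusted p = 0.214). The immunoproteasome subunits Psmb8, Psmb9 and Psmb10 had log2 changes of -0.02, -0.24 and 0.26, with adjusted p of 0.963, 0.558 and 0.355, and Tap2 had 0.35 (adjusted p = 0.176). YAP Tg 2 was the highest YAP Tg array for 6 of the 8, and the role's medians relative to control were 0.17, 0.39 and -0.05 in YAP Tg 1, 2 and 3. The class I median change was 0.19, and it was 0.08 without YAP Tg 2 and 0.31 without YAP Tg 3.

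No class II gene passed in either direction, 0 of 6 measured, against 14.2% of all genes. An unadjusted p under 0.05 (limma) was seen in 0, against 29.9% of all genes. The changes ran from -0.19 to 0.11, and their 95% intervals together from -1.15 to 0.79, so for some genes a change of -1 lies within the interval. Promoters of H2-Aa (chr17:34287824-34287983, minus strand) and H2-Eb1 (chr17:34305707-34305866, plus strand), the chains of 2 class II molecules, are printed from RefSeq GRCm38.p6 because the class II enhanceosome binds near a CCAAT box and a cAMP response element. Capitals mark CCAAT on either strand and, in H2-Aa, TGACGTCA.
H2-Aa: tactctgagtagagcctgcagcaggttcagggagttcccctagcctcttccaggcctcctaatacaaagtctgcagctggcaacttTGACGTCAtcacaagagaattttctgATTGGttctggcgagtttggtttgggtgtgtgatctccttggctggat
H2-Eb1: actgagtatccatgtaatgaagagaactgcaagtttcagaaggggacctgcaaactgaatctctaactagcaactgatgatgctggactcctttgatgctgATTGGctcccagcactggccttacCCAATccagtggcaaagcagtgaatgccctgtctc

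CCAAT occurred in 3 of 3 class II genes with an entry, and in 15 of the 24 members (62.5%) against 41.1% of genes, and TGACGTCA in 1 of the 24 (4.17%) against 2.03%. In class II genes the YAP Tg samples lay on both sides of the controls. YAP Tg 2 was above every control in 6 of 6 genes, against 5638 of all 19938 genes. YAP Tg 3 was below every control in 6 of 6, against 6369 of all genes, and YAP Tg 1 in 5 of 6, against 7081. Ciita, the class II transactivator, read 6.78, 8.06 and 6.54 in YAP Tg against 7.43, 7.30 and 7.22 in control (log2 change -0.19, SE 0.39, adjusted p = 0.774, limma). Cd74, the invariant chain, read 12.37, 12.76 and 12.21 in YAP Tg against 12.55, 12.47 and 12.55 in control (-0.08, SE 0.14, adjusted p = 0.741). H2-Aa read 11.96, 12.58 and 11.74 in YAP Tg against 12.06, 12.04 and 12.33 in control (-0.05, SE 0.22, adjusted p = 0.905). H2-DMa, which helps load peptide, read 9.82, 11.26 and 9.78 in YAP Tg against 10.51, 10.38 and 10.52 in control, with YAP Tg 2 above and the other YAP Tg samples below every control. H2-Eb1 followed the same order, at 10.88, 12.01 and 10.81 in YAP Tg against 11.17, 11.14 and 11.36 in control. In bulk crypts, fewer cells of a type and less RNA per cell cannot be told apart for these genes.

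The class II calls depended on YAP Tg 2. Without YAP Tg 2, 3 class II genes passed as lower in YAP Tg by limma, namely Ciita (-0.66, adjusted p = 0.00837), H2-DMa (-0.67, adjusted p = 0.00278) and H2-Eb1 (-0.38, adjusted p = 0.0265), and with it the changes were -0.19, -0.19 and 0.01. The fit without it also called Rsad2 and Ifih1, the RNA sensor, as higher, and 33.6% of all genes passed. Leaving out YAP Tg 3 called Gbp3 and Tap2 as higher beside Irf1, while Nlrc5 no longer passed. Leaving out any 1 control called 0 members, with 5.23% to 5.81% of all genes past the test.

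**Figure D5:**
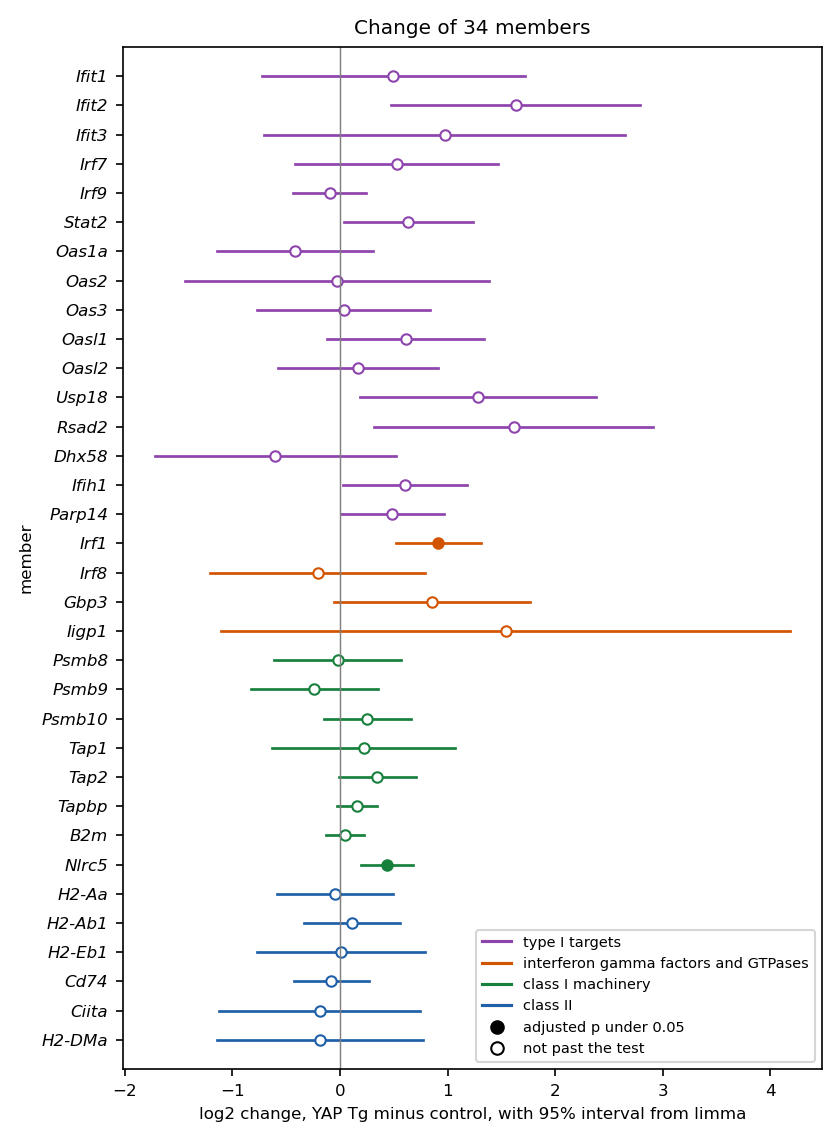
Log2 change (YAP Tg minus control) of each measured member with its 95% confidence interval from limma, by role. Irf1 and Nlrc5 are marked as past the test, 6 other members have intervals above 0 without passing, and the remaining intervals include 0.

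Of 13 measured interferon ligands and receptors, Ifnlr1 and Ifngr1 rose (15.4%, against 7.5% of all genes) and 0 fell (against 6.7%). Both receptors were higher in 3 of 3 YAP Tg samples than in any control. Ifnlr1, the ligand-specific chain of the type III interferon receptor of epithelium, read 8.72, 8.55 and 8.64 in YAP Tg against 7.59, 7.69 and 7.40 in control (log2 change 1.08, SE 0.10, adjusted p = 0.00191, limma). Ifngr1, the binding chain of the interferon gamma receptor, read 12.26, 11.86 and 12.00 in YAP Tg against 11.09, 11.10 and 11.00 in control (0.98, SE 0.11, adjusted p = 0.00399). Both passed in all 14 other settings. Ifng itself read 7.99, 7.03 and 6.58 in YAP Tg against 6.20, 5.97 and 6.14 in control (1.09, SE 0.34, adjusted p = 0.0913), and Ifnar1, a chain of the type I receptor, had a log2 change of 0.19 (adjusted p = 0.195).

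Among 13 measured signalling genes, 4 rose (30.8%) and 0 fell, against 7.5% higher and 6.7% lower over all genes. They were Stat3 (log2 change 0.80), the feedback inhibitors Socs1 (0.95) and Socs3 (1.10), and the kinase Jak1 (0.40), with adjusted p of 0.00130, 0.00399, 0.00992 and 0.0150 by limma. Jak1 no longer passed without any 1 control (up to 0.0703), and Socs3 not without control 1 (0.0569). Among 13 sensing genes 3 rose (23.1%) and 1 fell (7.69%), against the same 7.5% and 6.7%. Zbp1 (1.40), Aim2 (0.97) and Sting1 (1.27) rose and Mavs fell (-0.95), with adjusted p of 0.0277, 0.0151, 0.0428 and 0.0208. Each of these 4 lost the call without 1 or more single arrays, at up to 0.119 for Zbp1, 0.0776 for Aim2, 0.154 for Sting1 and 0.0954 for Mavs.

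Of 32 other interferon-induced genes 3 rose (9.38%) and 2 fell (6.25%), shares near the 7.5% and 6.7% of all genes, so the counts set this list apart in neither direction. The genes past the test were Gbp9 (log2 change 0.83), Parp12 (1.07) and Gbp5 (0.63), which rose, and those that fell, Ifitm3 (-1.85) and Ifitm2 (-1.10, named after its value was seen). Adjusted p values by limma were 0.00608, 0.0258, 0.0299, 0.0262 and 0.0409. The Ifitm proteins restrict virus entry at membranes, and Ifitm3 read 9.33, 10.84 and 9.66 in YAP Tg against 11.63, 12.02 and 11.74 in control, with every YAP Tg value below every control value. All but Gbp9 lost the call without 1 or more single arrays, at up to 0.112 for Parp12, 0.124 for Gbp5, 0.114 for Ifitm3 and 0.147 for Ifitm2. Of 8 other class I genes and of 3 constitutive proteasome subunits 0 passed, against 14.2% of all genes. At an unadjusted p under 0.05 there was 1 in each list, against 29.9% of all genes. Lists this short hold too few genes to differ clearly from those shares. Of 15 other class II genes 1 rose and 1 fell (6.67% each, near the shares of all genes). The costimulator Cd80 rose (0.75, adjusted p = 0.0122) and Ifi30, a lysosomal thiol reductase, fell (-0.75, adjusted p = 0.0335), and both lost the call without some single arrays, at up to 0.0554 and 0.135.

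Markers of T cells and cytotoxic lymphocytes moved with the groups. Of 14 measured T cell and cytotoxic lymphocyte markers 13 rose, against 7.5% of all genes higher. In 14 of 14 all YAP Tg values lay above all control values, against 16.5% of all genes. Cd8a read 10.56, 10.54 and 10.50 in YAP Tg against 9.24, 8.88 and 9.12 in control (log2 change 1.46, adjusted p = 0.00104, limma), and Cd3d changed by 1.59 (adjusted p = 0.00106). The log2 of the summed signal of the list was 14.82 to 15.13 in YAP Tg against 13.43 to 13.70 in control. Relative to control its median was 1.45, 1.38 and 1.29 in YAP Tg 1, 2 and 3, closer together than the medians of the type I or class II genes. The 1 marker that did not pass, named after its value was seen, was Cd2 (0.47, adjusted p = 0.0529). Lymphocytes are a source of Ifng, and their part in the interferon values was not tested.

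Macrophage and dendritic cell markers showed 6 higher (37.5%) and 1 lower (6.25%) of 16, against 7.5% and 6.7% of all genes, with Tyrobp (log2 change 1.71, adjusted p = 0.00602, limma) and Csf1r (0.85, adjusted p = 0.00377) as the examples with the smallest p. Their summed log2 signal was 11.83 to 12.32 in YAP Tg against 11.16 to 11.61 in control, and YAP Tg 1 was the highest YAP Tg array in 12 of 16. Without 1 control array the count of higher markers was 2 or 3. The lower marker, named after its value was seen, was Itgam (-0.43, adjusted p = 0.0499), and 0 were lower without YAP Tg 1, YAP Tg 3, control 1 or control 2. Lyz2 (-0.37) and Cd14 (-0.33), also named after their values were seen, were below 0 without passing. The changes of the other 13 were above 0, and not all of them passed. Of 8 B cell markers 0 passed (14.2% of all genes), with 2 at an unadjusted p under 0.05 (29.9% of all genes). Cd79b read 7.84, 8.39 and 8.02 in YAP Tg against 7.69, 7.50 and 7.68 in control. The summed B cell signal was 9.14, 9.31 and 9.20 in YAP Tg against 9.04, 8.94 and 9.03 in control. Cd79b was the strongest of these markers, and the only 1 of the 8 with a mean signal above the median gene. YAP Tg 2 was the highest YAP Tg array in 1 of the 8, Cd79b, and the lowest in 5. The list's medians relative to control were 0.07, -0.04 and 0.13 in YAP Tg 1, 2 and 3, mostly from weak signals. Of 9 stromal and endothelial markers 1 rose (11.1%, against 7.5% of all genes), Vim (0.95, adjusted p = 0.0218), which did not pass without YAP Tg 1 or any 1 control (up to 0.0986). Of 8 epithelial markers 3 rose (37.5%) and 1 fell (12.5%), against 7.5% and 6.7% of all genes, with Krt18 at 1.53 (adjusted p = 0.000596), Cdh1 at 0.45 (adjusted p = 0.0245), Krt8 at 0.28 (adjusted p = 0.0371) and Cdx1 at -0.97 (adjusted p = 0.00848), which did not pass without control 3 (0.0512). In both groups, 1 macrophage, 1 B cell and 0 T cell markers had signals below the median of the unnamed low-numbered probe sets. The part of these cell types in the member genes was not tested.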

How the data were processed

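Affymetrix gene arrays were run on 3 YAP Tg and 3 control crypt samples, grouped by their titles. The authors deposited log2 signals of 35556 probe sets, for which the submitters' processing notes name Affymetrix Expression Console 1.1. The log2 scale was read from the values. The sources used here do not give the normalization or build, and the number of arrays limits precision. The 6617 probe sets numbered below the first named one were left out. Of the others, 21789 carried 1 symbol, 1621 carried several and 5529 had no entry. limma 3.58.1 (R 4.3.3; lmFit, eBayes, two-sided, no covariate) compared the groups over 19938 genes, with Benjamini and Hochberg adjustment at 0.05. Whether samples are separate mice is stated for controls only, so p-values measure the spread between these samples.

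The members and the gene lists were chosen with earlier results of these data known. By the rule for named genes, full values were given for members past the test and for Stat2, Irf9, Irf7, Irf1, Ifit1, Nlrc5, Tap1, B2m, Ciita, Cd74 and H2-Aa, for up to 4 genes of each pathway list and up to 2 markers of each marker list. Ifit2, Rsad2, Usp18, Ifit3, Iigp1, Gbp3, Irf8, H2-DMa, H2-Eb1, Epcam, Krt8 and Yap1 were given in full, and Dhx58, Ifih1, Parp14, the Oas and Oasl genes, Cdh1, the immunoproteasome subunits, Tap2 and Tapbp by their changes, after their values were seen. The shared probe sets of Isg15, Gbp2, Igtp and H2-DMb1 were also described after their values were seen. Promoters came from RefSeq (GRCm38.p6). Alternatives were leaving out each sample, a replicate block, averaged probe sets, median centring, quantile normalization, filters on low signals, a trended and robust prior, array weights and a longer response element. The scripts were tested on simulated data.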

Additional observations from a re-analysis of the deposited data

How the results depend on the processing

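With 3 arrays per group, counts of calls moved with the samples used. Leaving out 1 sample gave 669 to 2802 higher and 369 to 3889 lower genes over all 19938, against 1495 and 1336, and 0 to 4 higher and 0 to 3 lower members, against 2 and 0. By role, those fits called 0 to 2 type I genes higher against 0, 0 to 2 interferon gamma genes against 1, 0 to 1 class I genes against 1, and 0 to 3 class II genes lower against 0. H2-Eb1, at 0.01 over all arrays, ranged from -0.38 (adjusted p = 0.0265, limma) without YAP Tg 2 to 0.22 without YAP Tg 3. Array weights, the lowest of which was 0.249 for YAP Tg 2, gave 2459 higher and 3481 lower genes and 1 type I gene (Rsad2). Genes above the median signal alone gave 1 (Ifit2). Averaging probe sets, or a trended and robust prior, left 1 member higher (Irf1) and 0 class I genes. In 475 comparisons of member genes with an alternative, 455 kept the side of the threshold, 11 lost the call, 8 gained one and 1 reversed. A change of sign was counted as reversed only where the gene was called in either fit, so the 455 include changes of sign in uncalled genes. Psmb8 changed sign in 5 settings, and Oas2, Oas3 and H2-Aa in 4 each. The same alternatives were applied to 27 pathway and marker genes that were added to this check after seeing the data. Of 373 comparisons, 316 kept direction and side of the threshold, 55 lost the call, 2 gained one and 0 reversed. Leaving out 1 sample moved the median log2 change between 0.24 and 0.78 for type I genes (0.51 over all arrays), 0.44 and 1.18 for interferon gamma genes (0.89), 0.08 and 0.31 for class I genes (0.19), and -0.34 and 0.12 for class II genes (-0.06), whose sign thus depended on the sample left out.

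The labels do not say whether replicate numbers pair the samples. Correlations of deviations from the group means were -0.131, 0.0124 and 0.0983 between same-numbered samples. Between differently numbered samples they ran from -0.135 to 0.120, and with 3 arrays a group these values cannot decide on pairing. With the replicate block, 975 genes were higher and 727 lower, 1 member was higher (Irf1) and 0 class I genes were. Causes of these shifts were not tested. The number of arrays and each gene's own spread limit what could be detected.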
